A study of Homo sapiens with 10 samples.

Results

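Actin-binding proteins and targets of the transcription factors YAP and SRF were followed in spheroids labelled as T47D, a breast cancer cell line. The list held 10 genes, CNN2, CNN3, CSRP1, ANKRD1, CCN1, CCN2, TPM1, ACTN1, VCL and MYL9. Of these, 9 were among the 13920 genes of the count table, and MYL9 was not analysed here. CNN2, ANKRD1 and CSRP1 were selected on their measured fall in clone A1 against wild-type (WT) in one or the other pair of experiments. Their values are therefore given as a description, without a test. The other 6 genes were chosen by function, with earlier results of these data known, and were tested.

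Spheroids of unedited WT cells were compared with those of 2 SAMHD1-KO clones, A1 and A2. The methods describe the knock-out as CRISPR-Cas9 editing of exon 5 of SAMHD1 in T47D. Spheroids grew for 4 days, and no treatment is given in the labels. Experiments 10 and 11, here the early pair, held 1 library each of WT and clone A1, and experiments 15 and 16, here the late pair, held 1 library each of WT, clone A1 and clone A2, which made 10 mRNA libraries. Each knock-out line is 1 clone, so an effect of the edit and a property of the clone cannot be told apart. Libraries of a clone share that clone, the methods describe biological duplicates, and the p-values measure only the spread between these libraries, which may be technical. Early and late stand for the order of the numbers, since the labels give no dates.

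The actin cytoskeleton and gene expression are linked through these factors. When globular actin is used up by filament growth, the cofactors MRTFA and MRTFB enter the nucleus and join SRF, which binds a sequence called the CArG box and drives genes of actin, its binding proteins and its contractile partners. Tension and spreading also release YAP (YAP1) and TAZ (WWTR1) from the Hippo kinases, and they act through TEAD factors on genes such as CCN1, CCN2 and ANKRD1. Both routes are known to respond to how firmly cells are attached, and rounded cells in suspension or soft matrices usually have less of either activity.

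The 250 bases before a start site show where letters of these factors' motifs stand in the genes the results turn on. They were taken from the RefSeq promoter table of GRCh38.p14, in which 8 of the 9 genes had an entry. CCN1 had none. Searched on both strands were the CArG box and the TEAD motif GGAATG, whose reverse complement is CATTCC. Of 35116 windows of this length in the table, 1.16% held a CArG box and 11.9% a TEAD motif. The sequences run 5′ to 3′ on the strand of the gene and end at the base before the start, with matches in capitals. CNN2 lies on the plus strand of chromosome 19 (chr19:1026358-1026607), and its match is the CArG box CCTTATAAGG. ANKRD1 lies on the minus strand of chromosome 10 (chr10:90921088-90921337), CCN2 on the minus strand of chromosome 6 (chr6:131951373-131951622) and VCL on the plus strand of chromosome 10 (chr10:73997866-73998115). Their matches are TEAD motifs.
CNN2: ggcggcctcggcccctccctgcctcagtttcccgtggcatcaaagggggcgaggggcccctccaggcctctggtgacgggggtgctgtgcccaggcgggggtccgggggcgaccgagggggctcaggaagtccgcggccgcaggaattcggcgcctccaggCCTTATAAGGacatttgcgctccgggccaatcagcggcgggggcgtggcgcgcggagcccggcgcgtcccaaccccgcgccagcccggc
ANKRD1: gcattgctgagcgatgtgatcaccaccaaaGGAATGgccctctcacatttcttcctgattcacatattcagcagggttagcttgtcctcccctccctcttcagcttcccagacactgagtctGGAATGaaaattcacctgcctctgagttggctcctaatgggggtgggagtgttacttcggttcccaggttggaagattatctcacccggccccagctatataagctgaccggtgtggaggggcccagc
CCN2: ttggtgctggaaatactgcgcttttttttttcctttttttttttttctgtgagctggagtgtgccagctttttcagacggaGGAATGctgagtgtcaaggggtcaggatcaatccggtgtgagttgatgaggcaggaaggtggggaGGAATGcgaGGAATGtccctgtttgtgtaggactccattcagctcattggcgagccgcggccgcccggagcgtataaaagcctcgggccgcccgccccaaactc
VCL: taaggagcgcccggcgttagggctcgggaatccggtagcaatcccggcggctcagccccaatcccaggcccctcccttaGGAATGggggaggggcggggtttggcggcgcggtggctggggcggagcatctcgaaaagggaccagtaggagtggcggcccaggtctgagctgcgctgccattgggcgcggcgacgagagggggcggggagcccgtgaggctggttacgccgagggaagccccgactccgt

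The CArG box of CNN2 began 89 bases before the start. ANKRD1 held TEAD motifs 220 and 128 bases before the start, CCN2 held 3 at 169, 104 and 95 bases, and VCL held 1 at 171 bases. The other windows differed between the starts of a gene. The window before the third start of ACTN1 held the CArG box CCAAAAATGG at 171 bases and a TEAD motif at 154 bases, whereas the other ACTN1 windows held neither. CNN3 had a TEAD motif only before the second start and CSRP1 only before the third, and the TPM1 window had no match. That window lies before a start inside the gene, and the bases before its first start were not searched. A match describes the letters of the reference and does not show binding in these cells.

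Library totals ranged from 40077369 to 51311482 counts. SAMHD1 was checked first. Given as CPM, counts scaled to library size by TMM, it stood at 53.9, 55.7, 49.8 and 56.4 in WT of experiments 10, 11, 15 and 16. Clone A1 had 22.5 and 23.0 in the early pair and 6.44 and 6.15 in the late pair, and clone A2 had 23.6 and 20.2. Every knock-out library was below every WT library, although the RNA of the targeted gene remained, and clone A1 differed between the pairs of experiments. The label T47D, a luminal line, was set beside 12 luminal markers, of which KRT19, TFF1 and SPDEF were not in the count table. ESR1 ranged from 0.183 to 1.59 CPM, EPCAM from 0.348 to 1.78, CDH1 from 0.684 to 2.16, and KRT8 from 3.10 to 9.07. Of the rest, GATA3 ranged from 15.4 to 24.8 CPM, FOXA1 from 14.1 to 26.8, PGR from 15.4 to 20.7, KRT18 from 36.3 to 60.3 and XBP1 from 40.7 to 65.3. VIM, a mesenchymal filament gene, ranged from 1175 to 1518 CPM. The low ESR1, EPCAM and CDH1 and the VIM level go against the label. GATA3, FOXA1, PGR, KRT18 and XBP1 were at higher levels, so the luminal list was mixed. The groups are named here only by their labels. In such bulk RNA, fewer cells of a type and less RNA per cell cannot be told apart.

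CNN2 encodes calponin 2, which binds actin filaments and slows the myosin motor. Its level in WT was 32.7 and 38.2 CPM in the early pair and 26.4 and 26.8 in the late pair. Clone A1 had 37.3 and 39.2 CPM in the early pair, but 12.6 and 14.0 in the late pair, and clone A2 had 13.1 and 10.3. Both clones lay below WT without overlap in the late pair, as did 17.4% of all genes, whereas clone A1 and WT overlapped in the early pair. The log2 difference from the same late WT libraries was −1.003 (SE 0.11) for clone A1 and −1.19 (SE 0.11) for clone A2. In the early pair the difference of clone A1 from WT was 0.11 (SE 0.10). CNN2 is on chromosome 19 (chr19:1026608-1039065, 7 exons, NCBI gene 1265). The median of the 240 genes within 10 Mb was −0.20 for clone A1 and −0.17 for clone A2 in the late pair. RefSeq names 11 pseudogenes of CNN2, none of them in the count table, which leaves out genes with a count of 0 in any sample. Whether reads of near-identical copies were counted as CNN2 was not tested, and its level is uncertain to that extent.

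ANKRD1 encodes a cardiac ankyrin repeat protein of the sarcomere and nucleus and is a standard readout of YAP. Its counts were low in every library, from 8 to 96. WT had 1.52 and 1.96 CPM in the early pair and 0.605 and 0.858 in the late pair. Clone A1 had 0.643 and 1.04, then 0.297 and 0.184 CPM, and clone A2 had 0.292 and 0.156. Each knock-out library lay below the WT libraries of its own pair of experiments, as in 4.16% of all genes, and WT of experiment 15 lay below both early clone A1 libraries. In the late pair the log2 difference from WT was −1.61 (SE 0.43) for clone A1 and −1.74 (SE 0.43) for clone A2. It was −1.05 (SE 0.32) for clone A1 in the early pair. ANKRD1 is on chromosome 10 (chr10:90912096-90921087, 9 exons), where the 105 genes within 10 Mb had medians of −0.12, −0.17 and 0.027 in these comparisons.

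CSRP1 encodes a LIM-domain protein of actin bundles and is a target of SRF in smooth muscle. WT had 25.9 and 26.0 CPM in the early pair and 37.1 in both late libraries. Clone A1 had 13.2 and 16.2 CPM in the early pair and 35.1 and 37.3 in the late pair, and clone A2 had 41.7 and 34.6. Clone A1 was below WT without overlap in the early pair only, where 19.4% of all genes were, and both clones overlapped with WT later. Clone A1 differed from WT by −0.82 (SE 0.10) in log2 in the early pair and by −0.034 (SE 0.099) in the late pair, where clone A2 differed by 0.040 (SE 0.099). CSRP1 is on the long arm of chromosome 1 (chr1:201483530-201507123, 6 exons). The 91 genes within 10 Mb had a median of 0.029 in the early pair, and of −0.22 for clone A1 and −0.20 for clone A2 in the late pair.

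**Figure D1:**
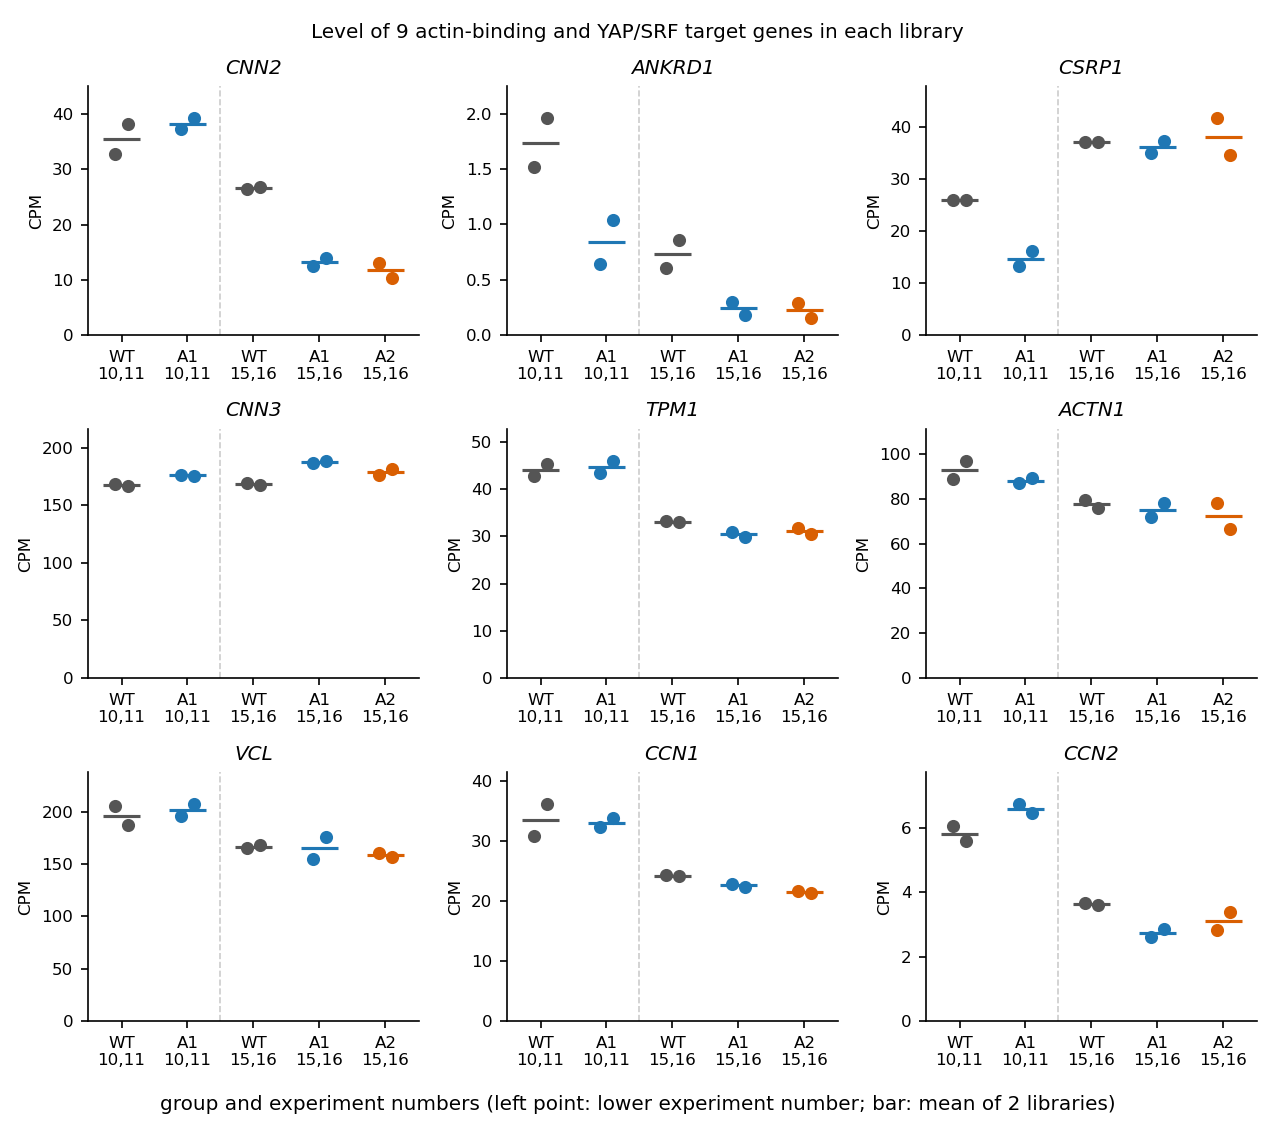
Level of each of the 9 genes in CPM (vertical axis) in the 10 libraries, grouped by WT, clone A1 and clone A2 and by experiment numbers (horizontal axis), with a bar at the mean of 2 libraries. CNN2 is below WT in both clones in the late pair but not in clone A1 in the early pair, CSRP1 is below WT in clone A1 in the early pair, while TPM1, CCN1 and CCN2 step down between the pairs of experiments in WT and in clone A1.

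The 6 genes that were not picked on their values gave no call in any comparison of a clone with WT in the fit without a replicate block. With edgeR's quasi-likelihood test and a Benjamini-Hochberg adjusted p under 0.05 as the call, 0 of 6 passed for clone A1 in the late pair, where 8.24% of all genes did. For clone A2 the count was 0 of 6 beside 16.4% of all genes, and for clone A1 in the early pair it was 0 of 6 beside 0.194%. Their median log2 fold change was −0.074, −0.096 and 0.030 in these comparisons, and the median of all genes was 0.0031, 0.0071 and −0.00044. At an unadjusted p under 0.05 there were 2 of the 6 for clone A1 in the late pair (CNN3 and CCN2) and 0 in each of the others, and DESeq2 and limma called 0 in all 3.

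CNN3 encodes calponin 3, an actin-binding protein made in many cell types outside muscle. It had 169 and 167 CPM in the early WT libraries and 170 and 168 in the late pair. Clone A1 had 176 in both early libraries and 187 and 188 in the late pair, and clone A2 had 177 and 182 CPM. All knock-out libraries lay above all WT libraries, as in 0.647% of all genes, by a log2 difference of 0.15 (SE 0.060) for clone A1 in the late pair. The edgeR adjusted p of that difference was 0.131, and it was 0.0414 in a fit with a replicate block for experiment number. For clone A2 the log2 difference was 0.088 (SE 0.060) and edgeR gave an adjusted p of 0.361, and for clone A1 in the early pair it was 0.068 (SE 0.060, adjusted p 0.661). CNN2 and CNN3, close relatives, had log2 differences of opposite sign in both clones in the late pair.

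TPM1, ACTN1 and VCL build and anchor actin filaments. TPM1 encodes a tropomyosin that lies along the filament. It had 42.7, 45.4, 33.2 and 33.0 CPM in the WT libraries of experiments 10, 11, 15 and 16, 43.5, 45.9, 31.0 and 30.0 in clone A1, and 31.7 and 30.5 in clone A2. ACTN1, the crosslinker alpha-actinin 1, had 89.0, 96.7, 79.6 and 75.9 CPM in WT, 86.9, 89.4, 72.0 and 78.0 in clone A1, and 78.3 and 66.7 in clone A2. VCL encodes vinculin, which couples filaments to adhesion sites. It had 205 and 188 CPM in the early WT libraries and 165 and 168 in the late pair. Clone A1 had 196, 207, 155 and 176 CPM of VCL in the same order and clone A2 had 160 and 157. For TPM1 both clones lay just below WT in the late pair (17.4% of all genes), and for ACTN1 and VCL the clone A1 libraries there overlapped with WT. The log2 differences of the clones from WT lay between −0.12 (TPM1, clone A1, the late pair) and 0.039 (VCL, clone A1, the early pair), with SEs of 0.073 to 0.082. Their edgeR adjusted p-values ranged from 0.391 to 0.958.

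CCN1 and CCN2 encode secreted matrix-associated proteins and are among the best known targets of YAP and TAZ. CCN1 had 30.8, 36.1, 24.3 and 24.2 CPM in the WT libraries of experiments 10, 11, 15 and 16. Clone A1 had 32.3, 33.9, 22.9 and 22.4 CPM of CCN1, and clone A2 had 21.7 and 21.4. CCN2 had 6.07, 5.59, 3.68 and 3.61 CPM in WT, 6.74, 6.46, 2.63 and 2.87 in clone A1, and 2.83 and 3.40 in clone A2. In the late pair both genes were lower in every clone library than in either WT library, as were 17.4% of all genes. The log2 difference of CCN2 was −0.41 (SE 0.16) for clone A1 and −0.22 (SE 0.16) for clone A2, with edgeR adjusted p-values of 0.138 and 0.376. For CCN1 the log2 differences were −0.096 (SE 0.088, edgeR adjusted p 0.581) and −0.17 (SE 0.088, adjusted p 0.216). In the early pair CCN2 was higher in both clone A1 libraries than in WT, as were 19.0% of all genes, by a log2 difference of 0.18 (SE 0.14), which edgeR did not call (adjusted p 0.633). ANKRD1, another YAP target of the list, was below WT in every knock-out library of the same experiments, while CCN1 in the early pair overlapped between clone A1 and WT.

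A change of the clone A1 effect from one pair of experiments to the other was tested as an interaction. It was called for 0 of the 6 tested genes by edgeR, DESeq2 and limma, beside 2.5% of all genes with edgeR, and CCN2 alone had an unadjusted p under 0.05. CCN2 had the largest value among the 6, −0.58 in log2 (SE 0.22, adjusted p by edgeR 0.185), and the others lay between −0.14 (TPM1) and 0.086 (CNN3). Of the picked genes, CNN2 differed by −1.11 (SE 0.15), CSRP1 by 0.79 (SE 0.14) and ANKRD1 by −0.56 (SE 0.55). Clone A2 against clone A1 in the late pair gave 0 calls among the 6 by each tool and 0 at an unadjusted p under 0.05, beside 4.14% of all genes with edgeR, with log2 differences between −0.073 (CCN1) and 0.18 (CCN2). The same difference was −0.18 (SE 0.11) for CNN2, −0.13 (SE 0.53) for ANKRD1 and 0.074 (SE 0.099) for CSRP1. The value of CNN2 was −0.36 without clone A2 of experiment 15 and −0.022 without clone A2 of experiment 16, and that of CSRP1 was −0.065 and 0.20.

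The experiments themselves separated most of these genes. In WT, 5 of the 6 tested genes had fallen from the early to the late pair by edgeR, as by DESeq2 and limma, where 7.74% of all genes were called lower with edgeR. CCN2 fell by 0.68 in log2 (SE 0.15, adjusted p by edgeR 0.00655), CCN1 fell by 0.47 (SE 0.086, adjusted p 0.00200) and TPM1 fell by 0.41 (SE 0.075, adjusted p 0.00178). ACTN1 fell by 0.26 (SE 0.082, edgeR adjusted p 0.0418) and VCL fell by 0.24 (SE 0.073, adjusted p 0.0366). In all 5 genes both earlier WT libraries were higher than both later ones, as in 26.8% of all genes. CNN3 differed by 0.0058 (SE 0.060, edgeR adjusted p 0.962). CNN2 and ANKRD1, described without a test, had log2 differences of −0.41 and −1.23 between these WT libraries, and CSRP1 had 0.51. The calls of CCN1 and TPM1 held without any 1 library. That of CCN2 ended without WT of experiment 16 (edgeR adjusted p 0.0622). ACTN1 was no longer called without WT of experiment 11, 15 or 16 or clone A1 of experiment 10 or 11, and VCL without WT of experiment 10, 15 or 16, clone A1 of experiment 10 or 11 or clone A2 of experiment 16.

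Clone A1, whose libraries are separate from those of WT but carry the same experiment numbers, had the same 5 genes lower in the late pair. This contrast was added after the WT values had been seen, and 19.0% of all genes were called lower in it. CCN2 fell by 1.26 in log2 (SE 0.15, adjusted p by edgeR 9.28e-06), TPM1 fell by 0.55 (SE 0.075, adjusted p 2.82e-05) and CCN1 fell by 0.55 (SE 0.087, adjusted p 1.16e-04). VCL fell by 0.29 (SE 0.073, edgeR adjusted p 0.00518) and ACTN1 fell by 0.23 (SE 0.082, adjusted p 0.0322). Both of these calls ended without clone A1 of experiment 11 or 15, and that of ACTN1 also without experiment 10. CNN3 differed by 0.092 (SE 0.060, edgeR adjusted p 0.243). CNN2, ANKRD1 and CSRP1 had values of −1.53, −1.80 and 1.30. The median over the 6 tested genes was −0.33 in WT and −0.42 in clone A1, where that of all genes was 0.0025 and 0.0060. The labels give no culture date or sequencing run for the experiment numbers, and what set the pairs apart was not tested. Of all genes, 2276 were called in WT and 5485 in clone A1 between the pairs.

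**Figure D2:**
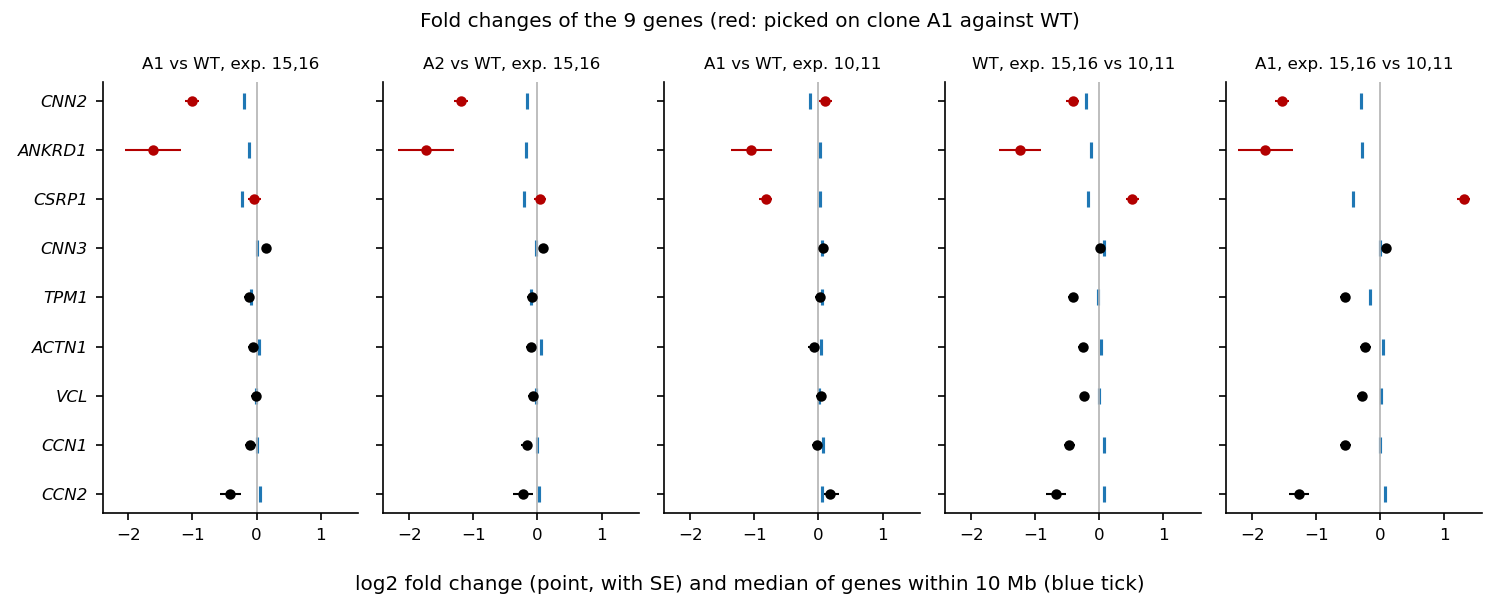
Log2 fold changes (horizontal axis) of the 9 genes in 5 comparisons, with standard errors as bars and the median of the genes within 10 Mb as a blue tick. The 6 tested genes, in black, lie between −0.41 and 0.18 for the clones against WT, both values being of CCN2, and 5 of them lie below 0 for the late against the early pair in WT and in clone A1.

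Neighbouring genes were read beside these values. Between the pairs of experiments, the median of the genes within 10 Mb of CCN1 was 0.066 in WT and 0.0020 in clone A1, and that around CCN2 was 0.072 and 0.077. Around TPM1 it was −0.018 and −0.17. The region of CSRP1 on chromosome 1 had a median of −0.18 in WT and −0.42 in clone A1, opposite in sign to CSRP1 itself.

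Across the 10 libraries, the tested genes other than CNN3 varied together. The Pearson correlation of log2 CPM was 0.985 between CCN1 and TPM1, 0.958 between CCN2 and TPM1, and 0.795 between CCN2 and ACTN1, the lowest among the 5. CNN2 correlated with these 5 at 0.826 to 0.900 and with ANKRD1 at 0.910. Both CNN2 and ANKRD1 were picked on their fall in clone A1, so their correlation is partly set by that choice. CSRP1 had correlations of −0.875 to −0.614 with the same 5 genes, and CNN3 had −0.570 to −0.386. These points share groups and experiments, so they describe 10 libraries of 5 kinds. The genes most alike to CNN2 over all genes were RNPEP (0.993), EPHX1 (0.993) and UCP2 (0.990), with log2 differences in clone A1 in the late pair of −0.30, −0.50 and −0.44. Those most alike to ANKRD1 were HACL2 (0.988), CNFN (0.986) and RPS16 (0.984), and those most alike to CSRP1 were KCTD19 (0.971), SLC2A10 (0.968) and IL17RE (0.968).

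Per kilobase of the MANE Select transcript in GENCODE, the mean WT level was highest for CNN3, at 84.5 CPM per kilobase. VCL (33.0), TPM1 (31.7) and ACTN1 (22.9) followed, and then CSRP1 (17.3), CNN2 (14.4) and CCN1 (12.7). CCN2 stood at 2.03 and ANKRD1 at 0.690 CPM per kilobase. The ranges over the 4 WT libraries overlapped between VCL and TPM1 and between CSRP1, CNN2 and CCN1, so the order among those is not fixed. CNN3, ACTN1, CCN2 and ANKRD1 did not overlap with their neighbours. The tested genes lie in GRCh38 at chr1:94896957-94927110 (CNN3), chr1:85580761-85583950 (CCN1), chr6:131948176-131951372 (CCN2), chr15:63042747-63071915 (TPM1), chr14:68874128-68979302 (ACTN1) and chr10:73998116-74121363 (VCL).

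The factors that act on these genes mostly had small log2 differences between clones and WT. YAP1 had log2 differences of 0.11, 0.085 and 0.11 for clone A1 in the late pair, clone A2, and clone A1 in the early pair. WWTR1, the gene of TAZ, had 0.062, 0.067 and 0.19 in the same order. SRF had −0.17, −0.12 and −0.012, TEAD1 had 0.023, 0.11 and 0.078, TEAD3 had −0.087, 0.12 and −0.058, and TEAD4 had −0.26, −0.12 and −0.045. None of these 6 factors was called by edgeR in the 3 comparisons (adjusted p of 0.107 or more), where 8.24%, 16.4% and 0.194% of all genes were called. TEAD2 fell by 0.31 (SE 0.076, edgeR adjusted p 0.0188) in clone A1 and fell by 0.38 (SE 0.076, adjusted p 0.00238) in clone A2 in the late pair, and its value in the early pair was 0.0064. The 402 genes around TEAD2 on chromosome 19 had medians of −0.18 and −0.16 in the first 2 of these. Between the pairs of experiments, SRF fell by 0.26 in WT (SE 0.068, edgeR adjusted p 0.0182) and fell by 0.41 in clone A1 (SE 0.068, adjusted p 1.61e-04). TEAD1 fell by 0.25 (SE 0.079, edgeR adjusted p 0.0404) and fell by 0.31 (SE 0.079, adjusted p 0.00566), while YAP1 had −0.061 and −0.063 and was not called.

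Other YAP and TAZ targets gave no edgeR call between clones and WT. Of 18 present of 19 listed, edgeR called 0 for clone A1 in either pair of experiments and 0 for clone A2, with medians of 0.0060, −0.00084 and 0.0057. The shares of all genes called were 8.24% for clone A1 in the late pair, 16.4% for clone A2 and 0.194% for clone A1 in the early pair. At an unadjusted p under 0.05 the counts were 3, 1 and 0 in the order clone A1 in the late pair, clone A2 and clone A1 in the early pair. DESeq2 called 1, 1 and 0 and limma 0. Between the pairs, PTPN14, a phosphatase that restrains YAP, fell by 0.46 in WT, the only call there, beside 7.74% of all genes lower and 8.61% higher. In clone A1, 4 of the 18 were lower and 2 higher, where 19.0% of all genes were called lower and 20.4% higher. MYOF fell by 1.29, PTPN14 fell by 0.80 and ARHGEF17 fell by 0.34, whereas IGFBP3 rose by 1.32 and F3, tissue factor, rose by 0.60.

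Of the other SRF and MRTF targets, 30 of 32 were present. FLNA, which encodes the crosslinker filamin A, fell by 0.30 (SE 0.083, edgeR adjusted p 0.0339) in clone A1 and fell by 0.35 (SE 0.083, adjusted p 0.00866) in clone A2 in the late pair. It was the only call for clone A1, where 8.24% of all genes were called. Clone A2 had 1 other, MYH9, the heavy chain of nonmuscle myosin, which fell by 0.58, where 9.07% of all genes were called lower and 7.33% higher. No gene of the list was called for clone A1 in the early pair by edgeR (0.194% of all genes), DESeq2 or limma, where ACTA2 and TNS1 had an unadjusted p under 0.05. The call of FLNA ended without WT of experiment 15 or 16 or clone A1 of experiment 15 for clone A1 (adjusted p up to 0.279), and without WT or clone A2 of experiment 16 for clone A2 (up to 0.113). The medians of the list were −0.0053, −0.067 and −0.014. Between the pairs of experiments, 6 of the 30 were lower and 3 higher in WT, beside 7.74% and 8.61% of all genes. ACTA2, smooth muscle actin, fell by 0.71, FLNA fell by 0.50 and MYH9 fell by 0.39, and TNS1 rose by 0.80, PDLIM5 by 0.36 and CALD1 by 0.29. In clone A1, 12 were lower and 6 higher, beside 19.0% and 20.4% of all genes. TAGLN fell by 0.88, FLNA fell by 0.81 and ACTA2 fell by 0.59, and TNS1 rose by 1.32, TGFB1I1 by 0.60 and PDLIM5 by 0.54. The late clone A1 libraries differed in TAGLN, with 2.35 CPM in experiment 15 and 1.08 in experiment 16, beside 2.76 and 3.59 in the early pair. The medians of the list were −0.14 in WT and −0.15 in clone A1.

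**Figure D3:**
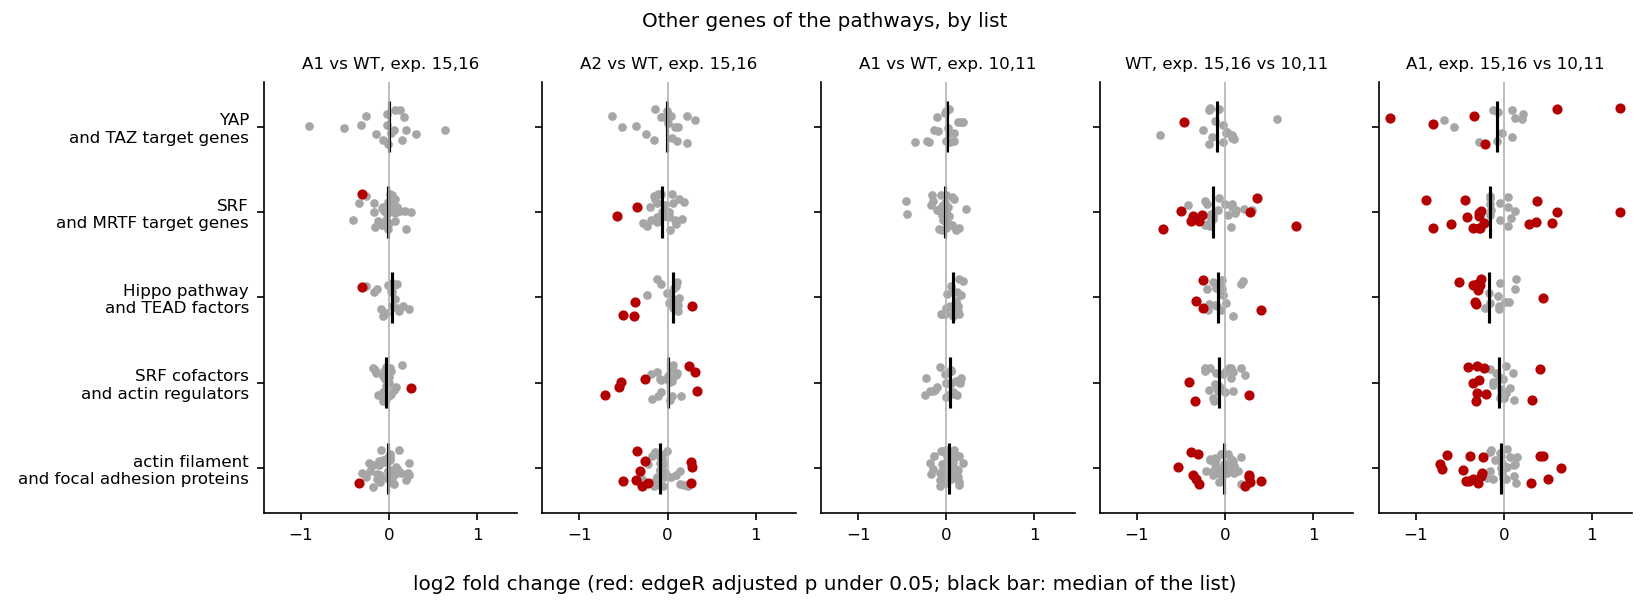
Log2 fold changes (horizontal axis) of the other genes of 5 pathway lists (rows) in 5 comparisons, with called genes in red and the median of each list as a black bar. Few genes are red for clone A1 against WT, and most red points appear between the pairs of experiments and in clone A2.

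The Hippo pathway had 20 listed genes, all present. TEAD2 was the only call for clone A1 in the late pair, beside 8.24% of all genes, and it ended without any 1 of the WT or clone A1 libraries of that pair (edgeR adjusted p up to 0.165). Clone A2 had 3 lower and 1 higher, where 9.07% of all genes were called lower and 7.33% higher. NF2, the upstream tumour suppressor merlin, fell by 0.50, TEAD2 fell by 0.38 and AMOT, which holds YAP at junctions, fell by 0.37, while VGLL4, a competitor of YAP for TEAD, rose by 0.28. Between the pairs, WT had 3 lower (WWC1, TEAD1 and AMOTL1, from −0.32 to −0.24) and MOB1B higher by 0.41, where the shares of all genes were 7.74% lower and 8.61% higher. Clone A1 had 8 lower (19.0% of all genes), led by TEAD2 (−0.50), LATS1 (−0.35) and FRMD6 (−0.33), and 1 higher (20.4% of all genes), MOB1B, by 0.45.

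All 25 genes of the list of SRF cofactors and regulators of actin assembly were present. PFN2, a profilin that supplies actin monomers, rose by 0.25 (SE 0.064, edgeR adjusted p 0.0229) in clone A1 and by 0.24 (SE 0.064, adjusted p 0.0171) in clone A2 in the late pair. It was the only call for clone A1, beside 8.24% of all genes, and it ended in either clone when single libraries of the late pair were left out (edgeR adjusted p up to 0.175). Clone A2 also had RHOB and MRTFB higher, by 0.34 and 0.32, and 4 genes lower. With PFN2 these are 3 higher and 4 lower of 25, beside 7.33% and 9.07% of all genes. Of the lower genes LIMK2, the kinase that inactivates cofilin, fell by 0.71, MRTFA fell by 0.55 and the formin DIAPH2 fell by 0.52. MRTFA had −0.051 in clone A1 in the late pair and −0.18 in the early pair, neither of them called, and MRTFB had 0.15 and 0.052. Between the pairs, WT had ARHGEF2 and LIMK2 lower, with log2 differences of −0.40 and −0.34, and PFN2 higher by 0.27, beside 7.74% of all genes lower and 8.61% higher. In clone A1, 8 were lower, led by DIAPH2 (−0.41), LIMK2 (−0.35) and ARHGEF2 (−0.31), and PFN2 and MRTFB were higher by 0.41 and 0.32, where 19.0% of all genes were lower and 20.4% higher.

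All 40 listed proteins of the actin filament and of focal adhesions were present. ARPC1A, a subunit of the branching complex Arp2/3, fell by 0.33 (SE 0.064, edgeR adjusted p 0.00427) in clone A1 in the late pair and was its only call, beside 8.24% of all genes. The call ended without clone A1 of experiment 15 (edgeR adjusted p 0.0575). In clone A2, 7 of the 40 were lower and 3 higher, beside 9.07% and 7.33% of all genes. PARVB fell by 0.50 and ARPC1A and ARPC5 each fell by 0.35, whereas another Arp2/3 subunit, ARPC2, rose by 0.28, the capping protein CAPZA2 by 0.27 and the thymosin TMSB10 by 0.26. No gene was called for clone A1 in the early pair by edgeR (0.194% of all genes), DESeq2 or limma, and 3 had an unadjusted p under 0.05. Between the pairs, WT had 6 lower, led by BCAR1 (−0.53), ARPC1A (−0.39) and CORO1B (−0.36), and 5 higher, led by CAPZA2 (0.40), ARPC2 (0.29) and TMSB4X (0.28), beside 7.74% and 8.61% of all genes. In clone A1 the counts were 12 and 5, with ARPC1A (−0.73), ENAH (−0.70) and BCAR1 (−0.65) lower and TMSB10 (0.64), ARPC2 (0.50) and CAPZA2 (0.45) higher, and the shares of all genes were 19.0% and 20.4%.

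Several genes called in clone A2 lay in regions whose median differed from WT in the same direction. MYH9, NF2, LIMK2, MRTFA and PARVB are all on chromosome 22. The genes within 10 Mb had medians of −0.52 around MYH9, −0.45 around NF2, −0.48 around LIMK2, −0.54 around MRTFA and −0.55 around PARVB. MRTFB had a regional median of 0.25 and CAPZA2 of 0.21. In contrast, regional medians were 0.023 around FLNA, −0.067 around DIAPH2, −0.029 around AMOT, 0.041 around RHOB, −0.0066 around PFN2 and −0.0019 around ARPC2. For clone A2 against clone A1, MYH9, NF2, LIMK2, MRTFA and PARVB were called lower, with log2 differences of −0.55 to −0.44. Of the pathway genes called in clone A2, MYH9, NF2, LIMK2, PARVB, TEAD2, AMOT, DIAPH2 and ARPC1A kept their call in all 17 alternative fits, and the other named pathway genes lost it without 1 or more single libraries. The part of the region in these values was not tested.

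**Figure D4:**
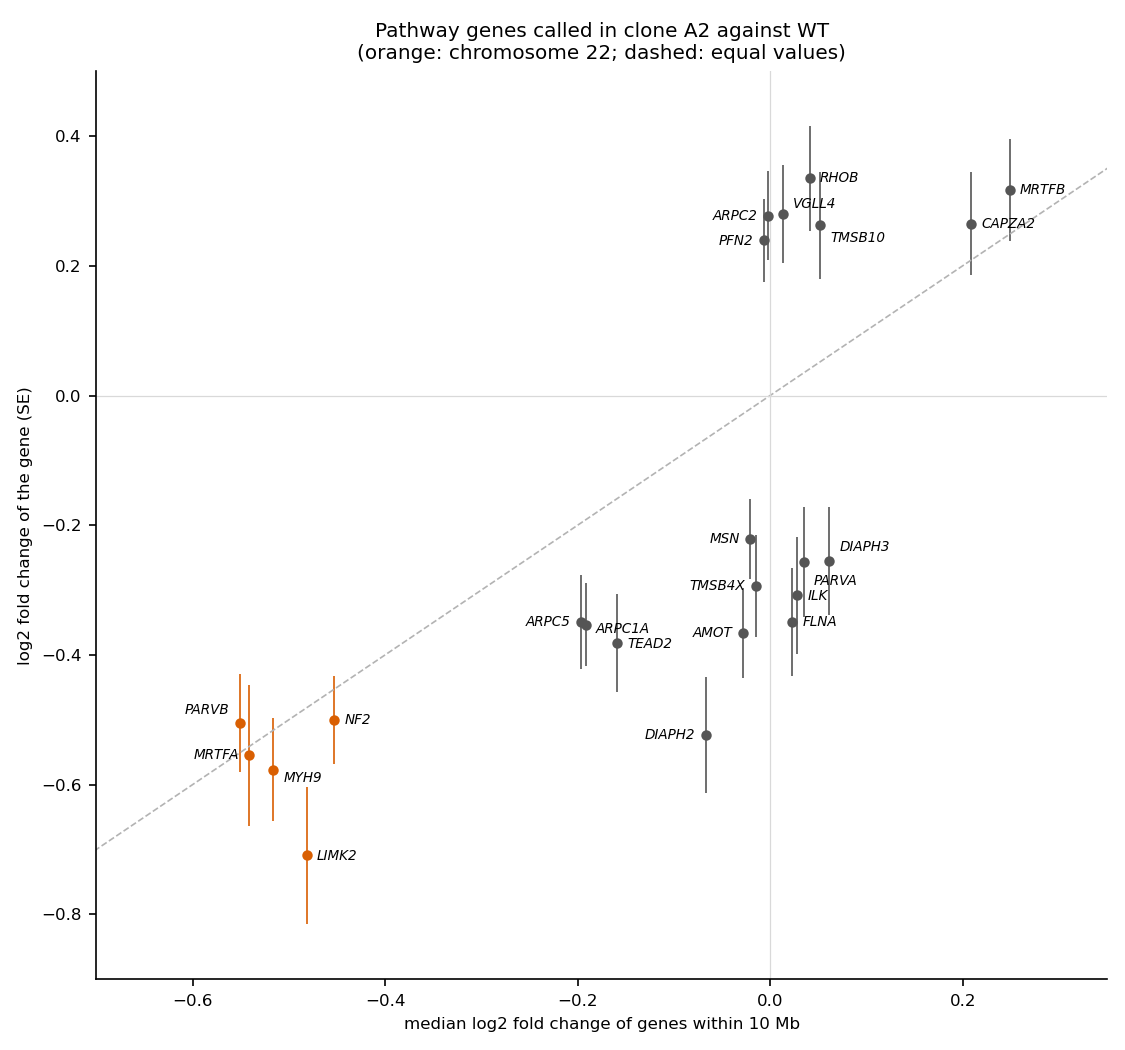
Log2 fold change with standard error (vertical axis) of each pathway gene called in clone A2 against WT, against the median of the genes within 10 Mb (horizontal axis), with equal values on the dashed line. The 5 genes of chromosome 22, in orange, lie at regional medians of −0.55 to −0.45, whereas FLNA, AMOT, RHOB and PFN2 lie near 0.

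Markers of other cells were read beside these genes. Of 10 myoepithelial and smooth muscle markers, 4 were present, and 3 of those, ACTA2, TAGLN and MYLK, are also on the pathway lists. Their summed level was 54.9 to 78.4 CPM in the early WT libraries, 45.9 to 49.0 in the late WT libraries, 48.3 to 58.9 and 40.3 to 43.1 in clone A1, and 45.0 to 45.6 in clone A2. KRT5, KRT14, KRT17, TP63, MYH11 and CNN1 were not in the count table. Of 10 fibroblast markers, 4 were present, with summed levels of 1194 to 1547 CPM over all libraries, nearly all of it VIM. COL1A2, DCN, LUM, PDGFRB, FAP and THY1 were not in the count table. COL3A1, one of the 4, had log2 differences from WT of −1.66 in clone A1 and −2.16 in clone A2 in the late pair, both called by edgeR, and was the only call of the list there. In the same order the log2 differences of the other 3 were −0.098 and 0.0036 for COL1A1, 0.20 and −0.097 for PDGFRA and 0.017 and −0.073 for VIM. Of the 4 smooth muscle markers, edgeR called ACTA2 lower in the late pair in WT, and ACTA2 and TAGLN in clone A1. MYLK had log2 differences of 0.065 and 0.10 between the pairs and OXTR had −0.055 and 0.35, in the order WT and clone A1, and neither was called. Of the 4 fibroblast markers, PDGFRA was called higher and COL3A1 lower between the pairs in WT, and in clone A1 PDGFRA and COL1A1 were higher and COL3A1 lower. Of the 9 luminal markers, WT had FOXA1 and EPCAM higher and ESR1 and KRT18 lower, and clone A1 had FOXA1, XBP1 and CDH1 higher and ESR1, KRT18 and GATA3 lower. Beside these marker counts between the pairs, 7.74% of all genes were lower and 8.61% higher in WT, and 19.0% and 20.4% in clone A1. Between clones and WT, KRT8 was lower, by log2 differences of −0.70 for clone A1 and −0.97 for clone A2 in the late pair and −0.94 for clone A1 in the early pair. FOXA1 was higher by 0.47 and 0.32 in the late pair, and XBP1 had 0.28 in clone A1 and −0.28 in clone A2, all called by edgeR, beside 8.24%, 16.4% and 0.194% of all genes called. Other than those of KRT8 in clone A2 and FOXA1 in clone A1, these calls ended when single libraries were left out. The part of these markers in the values of CCN1, CCN2, TPM1, ACTN1 and VCL was not tested.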

How the data were processed

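Counts per gene of 10 libraries were deposited without normalization. Libraries were stranded, and the authors used HISAT2 with GRCh38 and left out genes with a count of 0 in any sample. StringTie is named in the submitters' processing notes. Of 13920 genes, 13885 had a symbol, and 483 had a lowest count under 10. Tests were run with edgeR 4.0.16 in R 4.3.3 (TMM factors, robust quasi-likelihood fit, Benjamini-Hochberg adjustment over all genes, threshold 0.05), with WT and each clone in each pair of experiments as 5 groups. CPM used TMM factors, and log2 CPM a prior count of 2. DESeq2 1.42.0 and limma 3.58.1 were alternatives, with RLE normalization, filters on low counts, separate fits, a replicate block and each library left out. Methods were tested on simulated data. Depth was 40077369 to 51311482 counts per library.

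The genes and lists were chosen with earlier results of these data known. Named were the genes present, SAMHD1, the YAP, TEAD, SRF and MRTF factors, at most 3 called genes per list, comparison and direction, and the 3 genes most alike to CNN2, ANKRD1 and CSRP1. The plot of regions labels every called pathway gene. Clone A1 between the pairs of experiments was added after the data were seen. Lists were described by counts and medians, and 1 marker list is not reported here. No 2 libraries agreed within counting noise. The extraction kit differs between labels and methods.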

Additional observations from a re-analysis of the deposited data

Results flagged for a closer look

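COL3A1 is a fibrillar collagen gene among the fibroblast markers. Its change in clone A1 against WT was called unequal by edgeR between experiments 10 and 11 and experiments 15 and 16. Leaving aside the picked genes, which were not tested, it was the only gene of the lists called for this difference. Genes that were not called are not shown to have equal changes. The later log2 fold change minus the earlier one was −1.24 (SE 0.20, adjusted p 0.00387 by edgeR). WT had 17.9 and 15.3 CPM in experiments 10 and 11 and 9.75 and 8.46 in experiments 15 and 16, and clone A1 had 12.7 and 12.0, then 2.76 and 2.98. None of the actin-binding and YAP/SRF target genes that were tested passed this comparison.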

How the results depend on the processing

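No value changed sign past the threshold under the alternatives run. Over all genes, the count for clone A1 (experiments 15 and 16) moved from 1147 to 1834 when each pair of experiments was fitted alone. In experiments 10 and 11 the count moved from 27 to 12 with separate fits and 63 with DESeq2, and the difference of the clone A1 effect moved from 348 to 533 with DESeq2. With each library left out in turn, the counts were 343 to 2000 for clone A1 in experiments 15 and 16 (343 without WT of experiment 15), 1020 to 3199 for clone A2 against WT, and 7 to 1361 for clone A1 in experiments 10 and 11 (1361 without WT of experiment 10). They were 88 to 1123 for the difference, 268 to 959 for clone A2 against clone A1, 820 to 3658 for WT between the pairs and 3751 to 6360 for clone A1 between the pairs. Of the 6 tested genes, 2 to 5 were called between the pairs in WT (2 without WT of experiment 16) and 3 to 5 in clone A1 (3 without clone A1 of experiment 11 or 15). They gave 0 calls for the clones against WT in every such fit.

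Same-numbered libraries correlated at 0.0844 to 0.151 after the group means were removed, with those of experiments 15 and 16 all above 0.1 and those of experiments 10 and 11 below it. The labels give experiment numbers, which WT and clone libraries share, and whether they pair the libraries was not settled. The design without a block was kept. A replicate block for experiment number gave counts of 2411 for clone A1 in experiments 15 and 16 and 3673 for clone A2 against WT. It gave 382 for clone A1 in experiments 10 and 11, 1247 for the difference and 1213 for clone A2 against clone A1. Between the pairs it gave 4039 for WT and 6799 for clone A1. The replicate block called 1 of the 6 tested genes, CNN3, for clone A1 in experiments 15 and 16. It changed no other call of the 6. The cause of these changes was not tested. Of the alternative values of called list genes, 2220 kept the call and 274 lost it. With WT of experiment 10 left out, the difference of CNN2 between clone A1 and WT in experiments 10 and 11 was −0.0042. Of the 9 genes, ANKRD1 had the lowest counts, 8 to 96.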
